A study of Mus musculus with 36 samples.

Results

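The CCR4-NOT complex is the main cytoplasmic machine that shortens the poly(A) tails of mRNAs, and 10 genes for its subunits (Cnot1, Cnot2, Cnot3, Cnot4, Cnot6, Cnot6l, Cnot7, Cnot8, Cnot10 and Cnot11) were followed here through RNA sequencing of P-bodies, cytoplasm and polysomes. They were chosen by symbol, and all 10 were found once in each of the 3 count tables, among 25239, 25229 and 48440 listed genes. P-bodies were sorted as fluorescent particles from mouse cells that expressed GFP-LSM14A from a lentiviral vector. The reference was the cytoplasmic fraction used as input for the sort, a resuspended pellet obtained after nuclei had been removed. The naive embryonic stem (ES) cells were the v6.5 line in medium with 2 kinase inhibitors and LIF, and the primed ES cells were the same line moved to activin A and bFGF. The fibroblasts (MEFs) came from mouse embryos and were the uninduced reference for the reprogramming cells. No label states whether they carried the transgenes of those cells. The reprogramming cells were MEFs with a doxycycline-inducible Oct4, Klf4, Sox2 and Myc cassette, an rtTA transgene and an EGFP reporter of Pou5f1, taken at day 3 of induction with a control or a Nudt21 hairpin. Ago2 knockout (KO) cells were CRISPR-edited v6.5 ES cells. Each of these groups had 2 P-body and 2 cytoplasm libraries. Polysome-bound and total RNA (3 libraries each) came from GFP-LSM14A ES cells with a degron tag on endogenous DDX6. They were harvested within hours of adding the dTAG ligand that removes the protein, or left untreated (DMSO) as the control. The control cells thus also carried the tag, and the values concern an acute loss of DDX6. The DDX6 degron line came from single cells. The authors describe the sequencing replicates as biological, but no label states whether these were separate cultures. The p-values thus measure the spread between these libraries only.

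In the complex, CNOT1 is the scaffold on which the other subunits assemble. The tails are removed by 2 kinds of nuclease, CNOT6 or CNOT6L (CCR4 type) and CNOT7 or CNOT8 (CAF1 type), and a complex holds either paralog of each kind. CNOT2 and CNOT3 form the NOT module, CNOT10 and CNOT11 form a module at the amino-terminal end of CNOT1, and CNOT4 is a ubiquitin ligase that in mammals binds the complex only loosely. The complex is recruited to mRNAs by TNRC6 proteins on microRNA sites, by Pumilio and by TTP-family proteins. Its protein components gather in P-bodies together with the helicase DDX6, which binds CNOT1. The measurements below concern the mRNAs of these subunits, not the proteins.

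Libraries held 6769727 to 31185799 assigned reads, with the primed cytoplasm shallowest. Replicates differed beyond sampling noise in all 24 pairs of libraries (chi-square per degree of freedom 1.78 to 306). Levels are in CPM (reads of a gene relative to library size, scaled by TMM over the libraries of a table), and levels of the polysome table and the Ago2 KO table are not comparable with those of the others. In the libraries labelled Ago2 KO, Ago2 stood at 2.54 to 4.83 CPM, while Nudt21 stood at 4.87 to 5.94 CPM in the libraries labelled Nudt21 knockdown, against 88.9 to 110 CPM in their controls. Ddx6 mRNA does not check the degron labels, because the degron acts on the protein. Summed over 4 ES cell markers (Pou5f1, Sox2, Nanog, Lin28a), levels were 1320 to 1690 CPM in naive, 396 to 546 CPM in primed and 0.338 to 0.983 CPM in MEF libraries. Of 7 fibroblast markers, all were above 1 CPM in MEFs. In naive cells 2 of the 7 were above 1 CPM, with a sum of 1730 to 1840 CPM in P-bodies and 3990 to 4250 CPM in the cytoplasm. The sum of 3 nuclear RNAs (Malat1, Neat1, Kcnq1ot1) was 571 to 602 CPM in naive P-bodies against 178 to 251 CPM in the cytoplasm, and 5240 to 7250 against 1100 to 1160 CPM in MEFs. In primed cells it was lower in P-bodies, at 451 to 494 against 614 to 803 CPM. MEF P-body libraries also held 6.57 to 96 CPM of 4 lung epithelial markers, which were all at 0 in the MEF cytoplasm. The part of these markers in the results below was not tested. In bulk RNA, fewer cells of a kind and less RNA per cell cannot be told apart.

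In naive ES cells, 5 of the 10 genes were higher in P-bodies (Cnot2, Cnot4, Cnot6, Cnot6l and Cnot7) and 2 were lower (Cnot3 and Cnot11). A gene was called when its edgeR p, adjusted over all genes tested, was under 0.05. Of all 15630 genes tested, 22.6% were called higher and 15.4% lower. In primed ES cells 6 genes were higher, with Cnot8 in addition to the same 5, and 3 were lower (Cnot1, Cnot3 and Cnot10), against 26.5% and 24.2% of all genes. MEFs gave the opposite balance, with Cnot8 higher and 4 genes lower (Cnot1, Cnot2, Cnot3 and Cnot10), against 26.6% and 28.7%. The median log2 fold change of the 10 genes came to 0.43 (naive), 0.52 (primed) and −0.16 (MEF), beside −0.06, 0.00 and 0.03 for all genes tested. Members are counted here beside the share of all genes, and nothing particular to the complex follows from these counts.

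**Figure D1:**
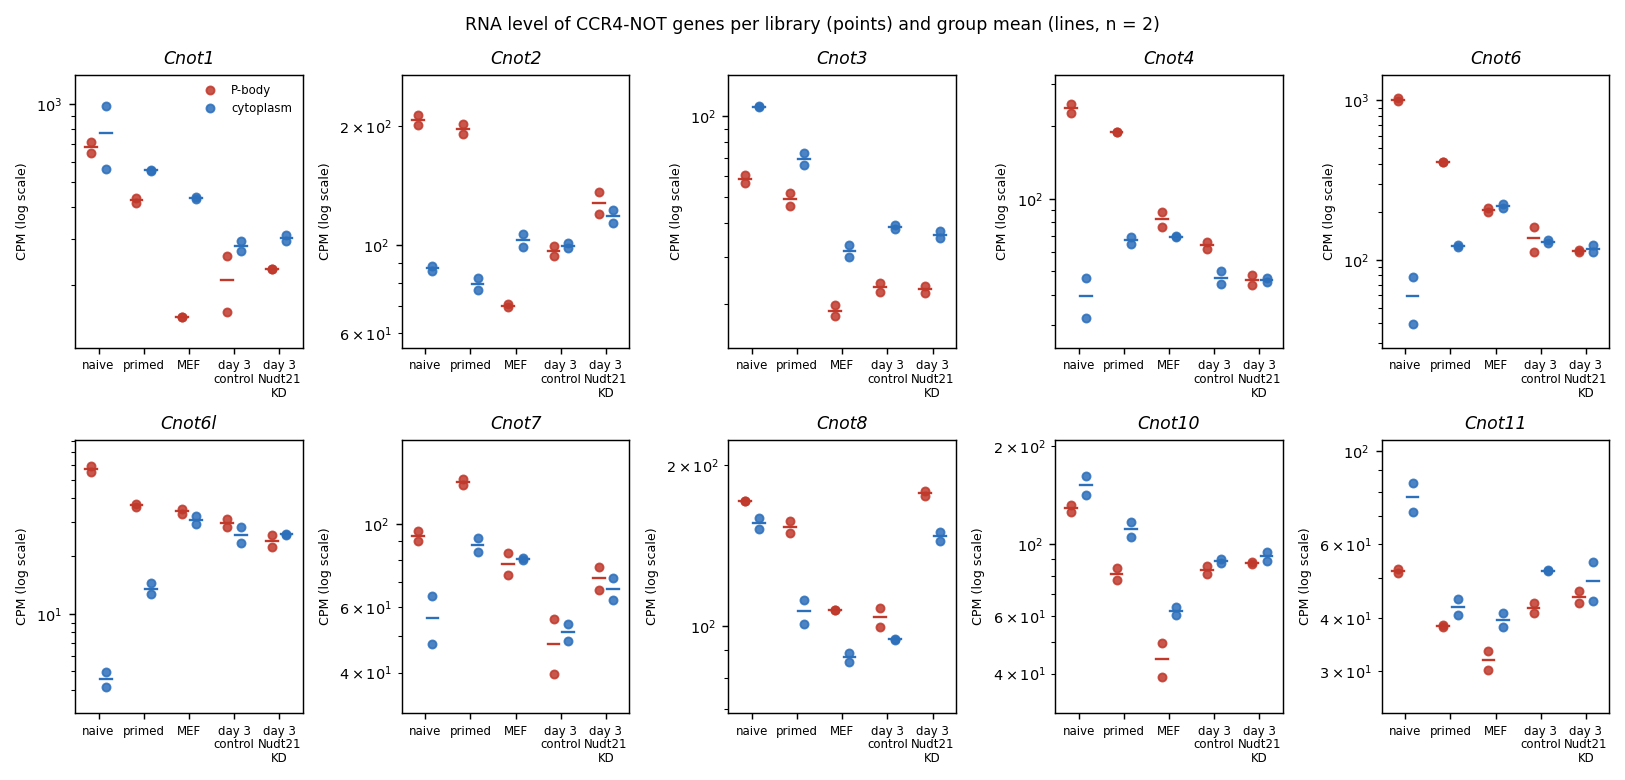
Level of each gene in CPM (log axis) in the 2 P-body (red) and 2 cytoplasm (blue) libraries of 5 cell groups, with lines at the group means. Red points lie far above blue points for Cnot6, Cnot6l and Cnot4 in naive and primed ES cells and near them in MEFs. For Cnot3 and Cnot10 they lie below in all 5 groups.

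In naive cells the mRNAs of the CCR4-type nucleases had the highest P-body enrichment of the 10 genes. Naive P-bodies held 998 and 1030 CPM of Cnot6, and the naive cytoplasm held 39.8 and 78.7 CPM. In primed cells the values were 411 and 411 CPM in P-bodies and 120 and 125 CPM in the cytoplasm. In MEFs they were 213 and 200 against 212 and 225 CPM. The fractions were thus far apart in both ES cell states and overlapped in MEFs. The fitted log2 fold change of Cnot6 was 4.10 ± 0.34 (SE), or 17.2-fold, in naive cells (edgeR adjusted p = 0.0008571). It placed the gene at percentile 99.4 of all genes tested. It was 1.72 ± 0.05 in primed cells (adjusted p = 2.555e-10) and −0.04 ± 0.09 in MEFs (adjusted p = 0.729). The naive value rested in part on the spread of the cytoplasm, and leaving out single libraries gave 3.69 to 4.69.

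Cnot6l showed the same order at a lower level. Its naive P-body libraries held 59 and 54.9 CPM and the naive cytoplasm held 4.16 and 4.99 CPM. In primed cells the values were 35.9 and 37.6 against 12.7 and 14.4 CPM, and in MEFs 33.2 and 35.4 against 29.3 and 32.5 CPM. The groups did not overlap in any of the 3 cell types, but the gap in MEFs was small. Cnot6l was 12.4-fold higher in naive P-bodies (log2 fold change 3.63 ± 0.17, edgeR adjusted p = 0.0004136) and 2.66-fold higher in primed P-bodies (1.41 ± 0.12, adjusted p = 7.499e-07). In MEFs it was not called (0.20 ± 0.12, adjusted p = 0.1914). Both CCR4-type genes kept their naive and primed calls in all 6 other settings and without each library in turn.

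Cnot6 (mm10 chr11:49671503-49712723, minus strand) and Cnot6l (chr5:96070333-96164171, minus strand) are protein-coding paralogs. Over the coding parts of their GENCODE M21 transcripts, 73.7% of 1651 aligned bases were identical, and the longest run shared by both transcripts was 20 bases. In the transcripts taken, their 3' UTRs, of 3690 and 1443 bases, were the only ones of the 10 genes with the 7-base match AGCACTT. It matches the seed of the miR-290 family, microRNAs of ES cells. MicroRNA levels were not compared here. Of 1489 other 3' UTRs within 20% of the length of that of Cnot6, 35.3% held this match, and of 2609 like that of Cnot6l, 16.1% did. The sense strand of these 3' UTRs was searched. Other transcripts of a gene, which can have longer 3' UTRs, were not. The mature microRNAs (RefSeq, GRCm38) are shown with the seed, bases 2 to 8, in capitals, followed by the 3 matches in the mRNAs with the match in capitals. The matches lie at chr11:49673037-49673059, chr11:49672186-49672208 and chr5:96076651-96076673, all on the minus strand.
mmu-miR-294-3p: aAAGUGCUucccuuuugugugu
mmu-miR-291a-3p: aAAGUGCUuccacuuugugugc
Cnot6 first match: aggggaggAGCACTTactcatct
Cnot6 second match: ttcatattAGCACTTtgaaacct
Cnot6l match: attatcaaAGCACTTaaatttgc
Among the 10 3' UTRs searched, none held the let-7 seed match CTACCTC, which 8.0% of all 20643 3' UTRs held. The Pumilio motif TGTANATA occurred once each in Cnot1, Cnot2, Cnot7, Cnot8 and Cnot11, against 21.5% of all 3' UTRs. A match is a run of letters and not evidence of binding.

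The CAF1-type nuclease genes were enriched less. Cnot7 (chr8:40492540-40515847, minus strand) held 95.8 and 90 CPM in naive P-bodies and 64.3 and 47.6 CPM in the cytoplasm. In primed cells it held 132 and 127 against 91.5 and 84.3 CPM. In MEFs the fractions overlapped, at 73 and 83.7 against 81.2 and 80.2 CPM. Its log2 fold change was 0.73 ± 0.17 in naive cells (edgeR adjusted p = 0.02231), 0.54 ± 0.07 in primed cells (adjusted p = 4.615e-05) and 0.00 ± 0.11 in MEFs (adjusted p = 0.9875). The naive call was lost without P-body replicate 1 (0.69) or replicate 2 (0.78). The span of Cnot7 overlaps Zdhhc2 and Vps37a on the other strand, and no source says whether counting used strand, so reads in the shared part are uncertain.

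Cnot8 (chr11:58104153-58118594, plus strand) was closest to even between the fractions in naive cells, with 171 and 171 CPM in P-bodies and 152 and 159 CPM in the cytoplasm (log2 fold change 0.13 ± 0.09, edgeR adjusted p = 0.3188). Without naive cytoplasm replicate 2 the value was 0.18 with an adjusted p of 0.006609. It was higher in primed P-bodies, at 149 and 157 against 101 and 112 CPM (0.50 ± 0.07, adjusted p = 8.511e-05). It was the only member called higher in MEF P-bodies, at 107 and 107 against 89.1 and 85.6 CPM (0.34 ± 0.09, adjusted p = 0.01083), and that call was lost without either MEF cytoplasm library (0.38 and 0.33). The coding parts of Cnot7 and Cnot8 were 71.6% identical over 857 aligned bases, with a longest shared run of 20 bases.

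Cnot1, the scaffold gene (chr8:95719451-95807464, minus strand), was lower in P-bodies wherever it was called. In MEFs it held 150 and 150 CPM in P-bodies and 436 and 428 CPM in the input cytoplasm. Its fitted value there, −1.48 ± 0.08 on the log2 scale (edgeR adjusted p = 3.568e-06), was the lowest of the 10 genes. In primed cells it held 413 and 435 against 558 and 550 CPM (−0.41 ± 0.05, adjusted p = 1.294e-05). This call was lost when all 20 libraries of the table were fitted together (−0.39, adjusted p = 0.1799). In naive cells it held 716 and 646 CPM in P-bodies and 990 and 560 CPM in the cytoplasm. The naive fractions overlapped (−0.19 ± 0.27, adjusted p = 0.6119), and the sign hung on the cytoplasm libraries. Without naive cytoplasm replicate 1 the gene was called higher in P-bodies (0.28), and without replicate 2 it was called lower (−0.53). The noncoding gene 4930513N10Rik overlaps the start of Cnot1 on the other strand.

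The NOT module genes went opposite ways in ES cells. Cnot2 (chr10:116485161-116581511, minus strand) held 201 and 213 CPM in naive P-bodies against 86.1 and 88.7 CPM in the cytoplasm, and 202 and 191 against 77.1 and 82.5 CPM in primed cells. In MEFs the order was turned, with 70.9 and 69.8 CPM in P-bodies and 107 and 99.2 CPM in the cytoplasm. The groups did not overlap in any of these cell types. Its log2 fold change was 1.25 ± 0.10 in naive cells (edgeR adjusted p = 0.000759), 1.28 ± 0.07 in primed cells (adjusted p = 1.438e-08) and −0.51 ± 0.09 in MEFs (adjusted p = 0.001391). The MEF call was lost without MEF cytoplasm replicate 1 (−0.44, adjusted p = 0.05897). The noncoding gene 5330438D12Rik overlaps the span of Cnot2 on the other strand.

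Cnot3 (chr7:3645268-3661109, plus strand) was the member that was called lower in P-bodies in all 3 cell types. It held 60.4 and 56.4 against 109 and 108 CPM in naive cells, 46.2 and 51.9 against 66 and 72.8 CPM in primed cells, and 18 and 19.7 against 33.1 and 29.9 CPM in MEFs. Its log2 fold changes were −0.89 ± 0.10, −0.52 ± 0.09 and −0.69 ± 0.13, with edgeR adjusted p of 0.002282, 0.0004272 and 0.00136. The naive call was lost without P-body replicate 2 (−0.84, adjusted p = 0.06464) and the MEF call without cytoplasm replicate 1 (−0.60, adjusted p = 0.05816). Leng1 overlaps the 3' end of Cnot3 on the other strand.

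Cnot4, the ubiquitin ligase gene (chr6:35022065-35133724, minus strand), held 247 and 228 CPM in naive P-bodies and 32 and 46.7 CPM in the cytoplasm. In primed cells it held 190 and 189 against 65 and 69.7 CPM, and in MEFs 76.4 and 87.9 against 69.5 and 69.9 CPM. It was 6.04-fold higher in naive P-bodies (log2 fold change 2.59 ± 0.20, edgeR adjusted p = 0.0007075) and 2.77-fold higher in primed P-bodies (1.47 ± 0.07, adjusted p = 4.321e-09). In MEFs it stood just short of the threshold (0.28 ± 0.11, adjusted p = 0.05262), and it was called there with filterByExpr (adjusted p = 0.0286), with DESeq2 size factors (adjusted p = 0.04419) and without MEF P-body replicate 1 (0.40, adjusted p = 0.000931).

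The genes of the amino-terminal module were somewhat lower in P-bodies. Cnot10 (chr9:114585878-114640184, minus strand) held 125 and 132 against 141 and 162 CPM in naive cells, 77.3 and 84.6 against 105 and 117 CPM in primed cells, and 49.5 and 39 against 64.2 and 60.5 CPM in MEFs. It was called lower in primed cells (log2 fold change −0.48 ± 0.08, edgeR adjusted p = 0.0003011) and MEFs (−0.45 ± 0.12, adjusted p = 0.01078), where the call was lost without either cytoplasm library (−0.40 and −0.47). In naive cells it was not called (−0.24 ± 0.11, adjusted p = 0.1525), but it was without cytoplasm replicate 1 (−0.34). Cnot11 (chr1:39534992-39546889, plus strand) was called lower only in naive cells, at 51.4 and 52.5 against 84.1 and 71.6 CPM (−0.58 ± 0.13, adjusted p = 0.01849), a call that was lost without P-body replicate 1 (−0.56) or replicate 2 (−0.60). In primed cells and MEFs its log2 fold changes were −0.17 ± 0.09 and −0.28 ± 0.11, and the second was called without MEF P-body replicate 1 (−0.33).

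**Figure D2:**
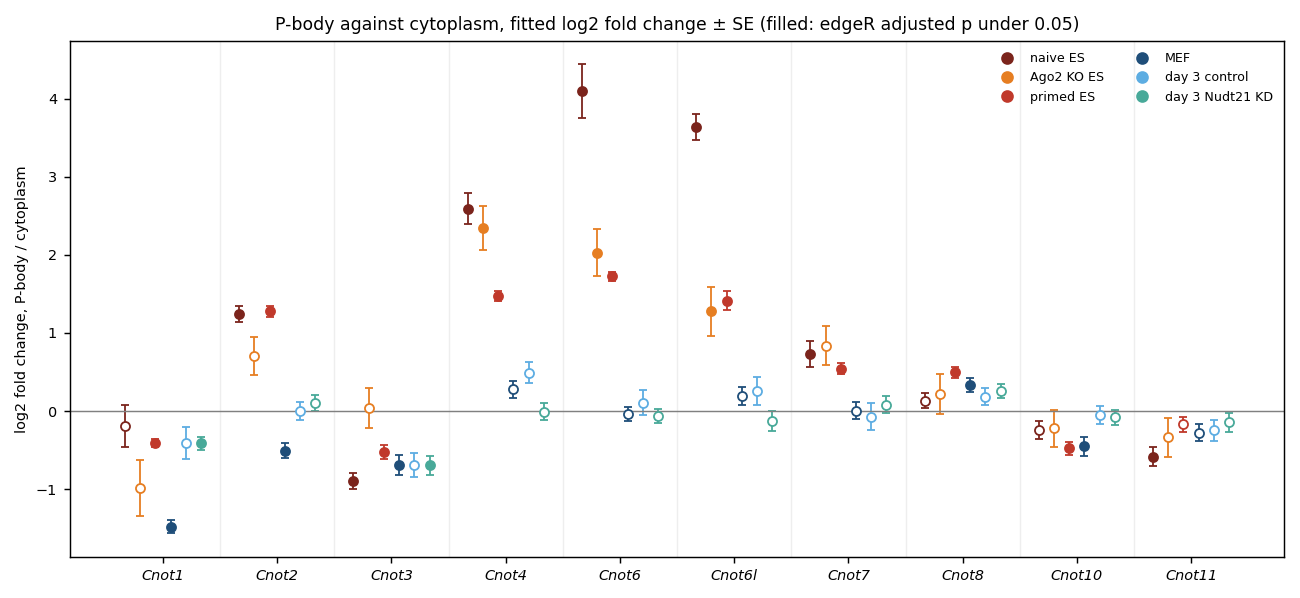
Fitted log2 fold change of P-body against cytoplasm for each gene in 6 cell groups (points, with bars of 1 SE, n = 2 libraries per fraction). Filled points passed an edgeR adjusted p of 0.05. Naive ES cells reach 4.10 for Cnot6 and 3.63 for Cnot6l, while both genes lie within 0.26 of 0 in MEFs and day 3 cells.

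Levels per kilobase of the transcript taken for each gene let different genes be set side by side. They depend on which transcript was taken. Cnot1 ranked first in the naive cytoplasm at 92.4 ± 36.2 CPM per kb (SD, n = 2) and Cnot8 second at 74.3 ± 2.30. These neighbours did not differ beyond their spread. Cnot6l ranked last at 1.44 ± 0.19 CPM per kb, below Cnot6 at 10.3 ± 4.79. In naive P-bodies Cnot6 ranked first at 178 ± 4.57 CPM per kb, followed by Cnot8 at 81.5 and Cnot1 at 81.2 ± 5.90. In the MEF cytoplasm the order of the CCR4-type pair was the same, with Cnot6 at 38.2 ± 1.59 and Cnot6l at 9.75 ± 0.72 CPM per kb.

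Whether enrichment itself differed between naive and primed cells was tested as an interaction over the 8 libraries. It was greater in naive cells for Cnot6 (difference of log2 fold changes 2.23 ± 0.34, edgeR adjusted p = 0.002012), Cnot6l (2.08 ± 0.20, adjusted p = 0.0003029) and Cnot4 (0.98 ± 0.21, adjusted p = 0.01046). It was lower in naive cells for Cnot3 (−0.51 ± 0.14), Cnot8 (−0.51 ± 0.12) and Cnot11 (−0.55 ± 0.16). Of all 17199 genes tested, 13.9% were called in the first direction and 11.4% in the second. The 3 lower calls were lost when all 20 libraries were fitted together or no filter was used, settings that moved the median of all genes by 0.12, and over the 6 other settings Cnot3 lost its call in 5, Cnot8 in 2 and Cnot11 in 6. Without single libraries, Cnot3 and Cnot8 lost their calls when either naive P-body library, either primed P-body library or primed cytoplasm replicate 1 was left out (−0.55 to −0.30 and −0.52 to −0.32), and Cnot11 also without primed cytoplasm replicate 2 (−0.48). The call of Cnot4 was lost without naive P-body replicate 1 (0.94, adjusted p = 0.05671). Cnot1 was not called (0.08 ± 0.29), but the value was 0.55 without naive cytoplasm replicate 1 and −0.27 without replicate 2, both called.

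Between naive cells and MEFs, enrichment was greater in naive cells for 5 genes and lower for 2, against 21.5% and 19.8% of 18143 genes. The differences were 3.95 ± 0.35 for Cnot6 (edgeR adjusted p = 2.712e-05), 3.25 ± 0.22 for Cnot6l (adjusted p = 8.856e-06), 2.12 ± 0.24 for Cnot4 (adjusted p = 9.558e-05) and 1.56 ± 0.14 for Cnot2 (adjusted p = 2.796e-05), all at or above percentile 85.1 of all genes. The median difference of all genes was −0.17, so the scale was not centred on 0. Cnot1 also differed (1.11 ± 0.29, adjusted p = 0.01194), though its fitted values were below 0 in both (−0.19 ± 0.27 in naive cells and −1.48 ± 0.08 in MEFs). The difference was 1.56 without naive cytoplasm replicate 1 and 0.77 without replicate 2, and its call was lost without naive P-body replicate 1. The lower calls of Cnot8 (−0.40 ± 0.14) and Cnot11 (−0.49 ± 0.17) were lost in 4 and 5 of the 6 other settings. With all 20 libraries fitted together, which raised the median of all genes by 0.23, they were −0.16 and −0.26. Both calls were also lost without any library of the naive P-bodies, MEF P-bodies or MEF cytoplasm (−0.41 to −0.13 and −0.52 to −0.18), and that of Cnot11 also without naive cytoplasm replicate 1 (−0.39), so that it was lost in 7 of 8 fits. Cnot7 was not called (0.54 ± 0.21, adjusted p = 0.06158), but it was in 4 of the 6 other settings and, among others, without naive cytoplasm replicate 1 (0.76). This comparison shares the naive libraries with the one before it.

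In Ago2 KO ES cells, which lack the main Argonaute protein of the microRNA pathway, 3 genes were called higher in P-bodies and 0 lower, against 5.47% and 1.05% of 16808 genes. At an unadjusted p under 0.05 there were 6 of the 10 genes, and DESeq2 called 5, 1 of them lower. Cnot4 held 263 and 208 CPM in P-bodies and 48.2 and 44.7 CPM in the cytoplasm (log2 fold change 2.34 ± 0.28, edgeR adjusted p = 0.002583). Cnot6 held 151 and 158 against 29.3 and 46.3 CPM (2.03 ± 0.30, adjusted p = 0.005172). Cnot6l held 47.6 and 48.5 against 13.7 and 26.1 CPM (1.28 ± 0.32, adjusted p = 0.04643). The fractions did not overlap for any of these 3 genes. The Ago2 KO cytoplasm libraries stood apart from each other. Without cytoplasm replicate 1 the values were 2.29, 1.62 and 0.77, and without replicate 2 they were 2.26, 2.37 and 1.78, all called. The call of Cnot6l was lost with filterByExpr (adjusted p = 0.05131), with DESeq2 size factors (adjusted p = 0.09034) and without either P-body library (1.29 and 1.26). Cnot1 held 248 and 290 against 363 and 703 CPM (−0.99 ± 0.36, adjusted p = 0.137), with −1.50 without cytoplasm replicate 1, then called, and −0.47 without replicate 2. Cnot7 held 134 and 150 against 78.2 and 81.2 CPM (0.84 ± 0.25, adjusted p = 0.08281), and it was called without either cytoplasm library (0.69 and 0.83). With the replicate number as a block, 6 members were called, the same 3 and Cnot2 (0.71, adjusted p = 0.01324) and Cnot7 (0.83, adjusted p = 0.004652) higher and Cnot1 lower (−0.91, adjusted p = 0.009139), while over all genes the 919 higher and 176 lower calls became 2565 and 1613. The P-bodies were sorted from a cytoplasmic fraction of the same preparation, but whether equal numbers mark 1 preparation is not given in the sources used here. The difference from naive cells was not tested, since the Ago2 KO libraries were counted by another pipeline.

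At day 3 of reprogramming, no member passed the test in control cells, in which only 0.196% of 15786 genes were called higher and 0.45% lower. At an unadjusted p under 0.05 there were 2 (Cnot3 and Cnot4), and DESeq2 called both. The log2 fold changes were −0.70 ± 0.15 for Cnot3 (edgeR adjusted p = 0.0796) and 0.49 ± 0.14 for Cnot4 (adjusted p = 0.1124). The P-body libraries of these cells differed from each other, for example 258 and 157 CPM of Cnot1. Without P-body replicate 1, 5 members were called, and without replicate 2, 3 were. In Nudt21 knockdown cells Cnot1 and Cnot3 were lower in P-bodies and no member was higher, against 12.8% and 9.04% of 15995 genes. Cnot1 held 229 and 230 against 312 and 294 CPM (−0.42 ± 0.08, adjusted p = 0.007717), and Cnot3 held 21.9 and 23.3 against 35.1 and 37.3 CPM (−0.69 ± 0.12, adjusted p = 0.003901). Without cytoplasm replicate 1 the value of Cnot1 was −0.40 (adjusted p = 0.102), and without replicate 2 both calls were lost (−0.44 and −0.63). Cnot8, at 179 and 175 against 150 and 144 CPM, missed the threshold (0.26 ± 0.09, adjusted p = 0.059), but passed it without P-body replicate 2 (0.29). Cnot6 held 162 and 112 against 134 and 127 CPM in control cells and 116 and 112 against 124 and 112 CPM in knockdown cells, so that its fractions overlapped in both.

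The log2 fold change of P-body against cytoplasm was greater at day 3 than in MEFs for Cnot1 (difference 1.11 ± 0.23, edgeR adjusted p = 0.01125) and Cnot2 (0.55 ± 0.15, adjusted p = 0.03363). It was lower for 0 members, against 9.59% of 17488 genes greater and 5.13% lower. Neither gene was called higher in P-bodies in either group. Cnot1 stood at −0.41 ± 0.20 at day 3 and −1.48 ± 0.08 in MEFs, and Cnot2 at −0.0007 ± 0.11 and −0.51 ± 0.09. At an unadjusted p under 0.05 there were 3 members. Without day 3 P-body replicate 1 the difference for Cnot1 fell to 0.71. Its call was lost without MEF P-body replicate 1 (1.09), MEF cytoplasm replicate 1 or either day 3 cytoplasm library (1.13 and 1.01). The call of Cnot2 was lost without either library of the MEF P-bodies, MEF cytoplasm or day 3 cytoplasm (0.47 to 0.60). No member was called for a change of enrichment on Nudt21 knockdown (edgeR adjusted p of at least 0.8937), and 0% of 16973 genes were called higher and 0.0118% lower. Cnot4 was the member with an unadjusted p under 0.05 (−0.47 ± 0.17), and DESeq2 called 26 genes, none of them a member.

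The levels in the cytoplasm were compared as well. Relative to primed cells, the naive cytoplasm held more Cnot3, Cnot8, Cnot10 and Cnot11 and less Cnot4, Cnot6, Cnot6l and Cnot7, against 22.1% and 21.6% of 16125 genes. The log2 differences ran from −1.58 ± 0.25 for Cnot6l (edgeR adjusted p = 0.004659) and −1.06 ± 0.31 for Cnot6 (adjusted p = 0.03446) to 0.86 ± 0.15 for Cnot11 (adjusted p = 0.006329). For Cnot6 the value was −0.65 without naive cytoplasm replicate 1 and −1.65 without replicate 2. All 8 calls were lost without either primed cytoplasm library, with log2 differences from −1.66 to 0.92 when replicate 1 was left out. Cnot1 was not called (0.47 ± 0.26), but it was without naive cytoplasm replicate 2 (0.81). Relative to MEFs, the naive cytoplasm held more Cnot1, Cnot3, Cnot8, Cnot10 and Cnot11 and less Cnot4, Cnot6, Cnot6l and Cnot7, against 36% and 35.9% of 16871 genes. These differences ran from −2.75 ± 0.19 for Cnot6l to 1.79 ± 0.12 for Cnot3 (adjusted p = 0.0001676 and 0.0001337). The calls of Cnot1, Cnot4 and Cnot7 were lost without either MEF cytoplasm library (0.83 to 0.86, −0.83 to −0.82 and −0.53 to −0.52). In P-bodies the levels of Cnot6 and Cnot6l were in the other order, higher in naive cells than in MEFs in every library, but P-body levels were not tested against each other.

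At day 3, the control cytoplasm held more Cnot3, Cnot8, Cnot10 and Cnot11 and less Cnot1, Cnot4, Cnot6 and Cnot7 than the MEF cytoplasm, against 35.5% and 33.7% of 16108 genes. The largest of these were −0.68 ± 0.06 for Cnot6 (edgeR adjusted p = 9.257e-08) and −0.59 ± 0.08 for Cnot7 (adjusted p = 4.29e-06). The call of Cnot8 (0.17) was lost without each library in turn (0.12 to 0.19), and that of Cnot3 (0.35) without MEF cytoplasm replicate 2 (0.26). The Nudt21 knockdown cytoplasm held more Cnot8 than the control cytoplasm, at 150 and 144 against 94.6 and 94.3 CPM (0.64 ± 0.07, adjusted p = 5.428e-07). Cnot7 (0.39 ± 0.09, adjusted p = 0.001417) and Cnot2 (0.25 ± 0.07, adjusted p = 0.007074) were higher too, and 0 members were lower, against 24.6% and 25% of 15990 genes. Without control cytoplasm replicate 2 the call of Cnot2 was lost (0.22, adjusted p = 0.0558).

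**Figure D3:**
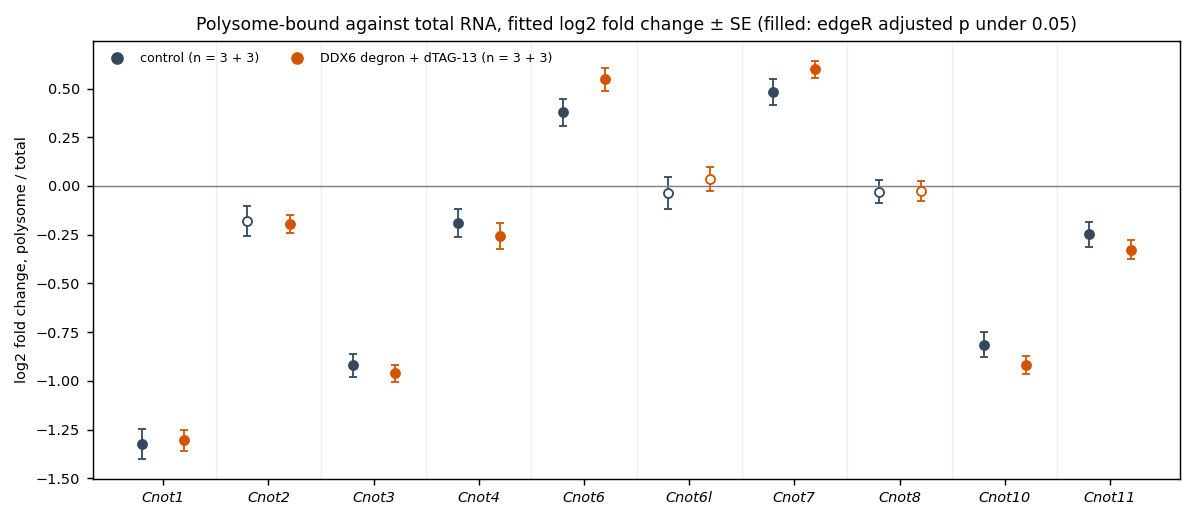
Fitted log2 fold change of polysome-bound against total RNA for each gene in control and DDX6-depleted ES cells (points, with bars of 1 SE, n = 3 libraries per fraction). Filled points passed an edgeR adjusted p of 0.05. Cnot1, Cnot3 and Cnot10 lie near or below −0.81, Cnot6 and Cnot7 lie above 0, and the 2 conditions nearly coincide.

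Ribosome occupancy, the ratio of polysome-bound to total RNA, differed among the members. In control ES cells Cnot1 held 196, 204 and 204 CPM in polysomes and 544, 527 and 437 CPM in total RNA. Cnot3 held 82.5, 84.6 and 79.7 against 155, 159 and 152 CPM, and Cnot10 held 68.5, 65.6 and 68.5 against 116, 120 and 119 CPM. For these 3 genes every polysome library was below every total RNA library. The log2 fold changes were −1.32 ± 0.08 for Cnot1 (edgeR adjusted p = 4.12e-10), at percentile 3.73 of all genes, −0.92 ± 0.06 for Cnot3 (adjusted p = 2.251e-09) and −0.81 ± 0.06 for Cnot10 (adjusted p = 1.596e-08).

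Of the catalytic genes, Cnot6 and Cnot7 were higher in polysomes. Cnot7 held 128, 129 and 130 CPM in polysomes against 101, 90.2 and 84.8 CPM in total RNA (log2 fold change 0.48 ± 0.07, edgeR adjusted p = 2.089e-05). Cnot6 held 126, 123 and 117 against 97.5, 99.4 and 84.1 CPM (0.38 ± 0.07, adjusted p = 0.0003196). Cnot6l and Cnot8 were not called (−0.04 ± 0.08 and −0.03 ± 0.06), and their fractions overlapped. In all, 2 members were higher and 5 lower in polysomes, against 18.8% and 24.1% of 15411 genes, and the remaining lower calls were small (−0.25 ± 0.07 for Cnot11 and −0.19 ± 0.07 for Cnot4). The call of Cnot4 was lost without any library but total RNA replicate 3 (−0.15 to −0.20) and in 4 of 6 other settings. Cnot2 was not called (−0.18 ± 0.08), but it was without total RNA replicate 3 (−0.26).

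In DDX6-depleted cells the order was alike, with Cnot6 (0.55 ± 0.06) and Cnot7 (0.60 ± 0.04) higher and 6 members lower, against 24% and 26.8% of 15638 genes. Cnot1 held 173, 187 and 188 CPM in polysomes and 482, 412 and 460 CPM in total RNA (−1.31 ± 0.05, edgeR adjusted p = 1.639e-15). All 8 calls held in the other settings and without each library. The change in occupancy on DDX6 removal, tested as an interaction, was called for 0 members by edgeR, with 0 at an unadjusted p under 0.05, and 0% of 16345 genes were called in either direction. DESeq2 called 4 genes, none of them a member. The values ran from −0.11 ± 0.07 for Cnot10 to 0.17 ± 0.10 for Cnot6. In total RNA, 0 members were called, against 1.24% of 15380 genes higher and 2.07% lower, and 2 had an unadjusted p under 0.05. Cnot6 held 81.5, 71.1 and 85 CPM in depleted cells against 97.5, 99.4 and 84.1 CPM in the control (−0.25 ± 0.08, adjusted p = 0.09818), and DESeq2 called it (adjusted p = 0.03861). Without control replicate 3, Cnot1, Cnot4, Cnot6 and Cnot7 were called lower (−0.32 to −0.18).

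**Figure D4:**
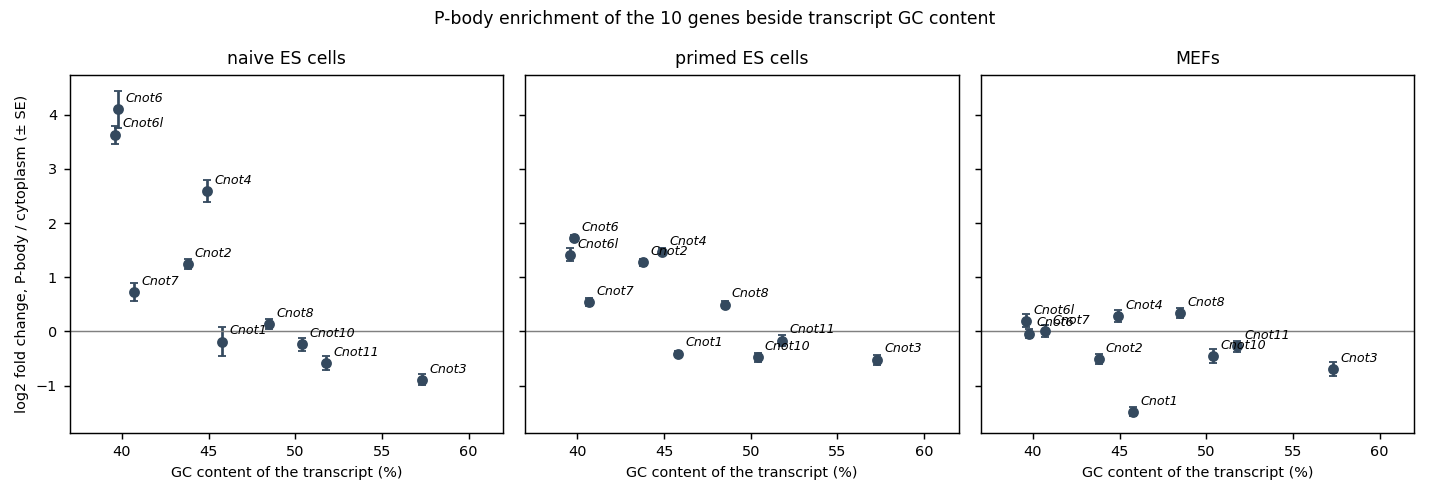
Fitted log2 fold change of P-body against cytoplasm (vertical axis, bars of 1 SE) beside the GC content of the transcript in percent (horizontal axis) for the 10 genes in naive cells, primed cells and MEFs. In naive cells the values fall from the GC-poor Cnot6 and Cnot6l to the GC-rich Cnot3, and in MEFs the points are flatter.

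Members with less G and C in their mRNAs were more enriched in ES cell P-bodies. The transcripts of Cnot6l and Cnot6 were the poorest in G and C (39.6% and 39.8%), and that of Cnot3 was the richest (57.3%), against a median of 49.3% over 21875 coding genes. Spearman's rho between GC content and P-body enrichment over the 10 genes was −0.93 (naive), −0.83 (primed), −0.71 (Ago2 KO) and −0.38 (MEF). It was −0.59 in day 3 control cells, where no member was called, and −0.39 in the knockdown. Across all genes with a value (83.6% to 91.4% of those tested) it was −0.63, −0.39, −0.49 and −0.05, with −0.24 and −0.30 at day 3. Between enrichment and the 3' UTR length of the transcript taken, rho over the 10 genes was 0.62 in naive and 0.76 in primed cells, beside 0.24 and 0.07 across all genes. In MEFs it was 0.39 beside −0.30, and in Ago2 KO cells 0.43 beside −0.06. At day 3 it was 0.53 beside −0.19 in control cells and 0.15 beside −0.18 in the knockdown. These are descriptions across genes that share libraries, and carry no p. In naive cells the median log2 fold change of the 567 genes with at most 40% GC was 1.85, which both CCR4-type genes exceeded, and that of the 2441 genes with at least 57% was −0.65, near that of Cnot3. The limits of 40% and 57% lie next to the GC content of Cnot6 and Cnot3, and the sets include these members. For occupancy in control cells rho with GC content was −0.68 across the 10 genes and −0.08 across all genes. Between transcript length and control occupancy rho was −0.18 across the 10 genes and −0.39 across all genes. With P-body enrichment it was 0.21 and 0.21 in naive, 0.25 and −0.04 in primed and −0.18 and −0.49 in MEF cells. It was −0.10 and −0.37 in day 3 control cells, −0.49 and −0.42 in the knockdown and −0.02 and −0.24 in Ago2 KO cells. Cnot1 had the longest transcript of the 10 genes (8390 bases), and the part of length was not tested.

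Other genes of the pathway were followed as 4 lists, 39 genes in all. Of 17 recruiters of the complex, 10 were called higher and 0 lower in naive P-bodies (15 tested, median log2 fold change 1.47), 8 and 1 in primed P-bodies (16 tested, 0.50) and 3 and 6 in MEF P-bodies (16 tested, −0.07). Beside these stand shares of all genes of 22.6% higher and 15.4% lower (naive), 26.5% and 24.2% (primed) and 26.6% and 28.7% (MEF), and the MEF count lies near its share. In naive cells the largest values belonged to Pum2 (3.43 ± 0.24), a Pumilio protein, the TNRC6 scaffolds Tnrc6a (3.13 ± 0.27) and Tnrc6b (2.68 ± 0.22), and the TTP-family gene Zfp36l1 (2.73 ± 0.19). Enrichment was greater in naive than in primed cells for 8 of 16 recruiters and lower for 0, beside 13.9% and 11.4% of all genes, led by Ddx6 (1.73 ± 0.29, edgeR adjusted p = 0.003187). In Ago2 KO P-bodies Tnrc6a (2.21 ± 0.35) and the Roquin paralog gene Rc3h2 (1.24 ± 0.27) were higher. In day 3 Nudt21 knockdown P-bodies 0 recruiters were higher and 9 of 15 tested were lower (median −0.39), against 9.04% and 12.8% of all genes. The lowest were Samd4b (−1.48 ± 0.17) and Tnrc6c (−1.14 ± 0.16). In day 3 control P-bodies 0 of 16 were higher and 1 was lower, against 0.196% and 0.45%.

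Of the 8 other deadenylases, 2 were higher and 3 lower in naive P-bodies, 1 and 2 in primed P-bodies and 2 and 3 in MEF P-bodies, which are to be read, like the lists that follow, beside the shares of all genes given above. In MEFs Pan3, a subunit of the PAN2-PAN3 deadenylase, was higher (1.16 ± 0.20) and Angel1 lower (−1.16 ± 0.21). Of the 8 complex partners and BTG/TOB adaptors, 7 were tested in each of these cell types, and 6, 4 and 2 were higher in naive, primed and MEF P-bodies, while 1, 1 and 3 were lower. Tnks1bp1, which encodes a CNOT1-binding protein, was lower in primed (−2.14 ± 0.12) and MEF P-bodies (−2.22 ± 0.11) and had the lowest occupancy of the lists in control cells (−1.53 ± 0.09). Of the 6 poly(A) binding proteins and regulators, 2 of 5 tested were higher and 1 lower in naive P-bodies, with 3 and 2 of 6 in primed and 2 and 1 of 6 in MEF P-bodies. No gene of the 4 lists was called for a change of occupancy on DDX6 removal.

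Across the 20 P-body and cytoplasm libraries of the main table, the log2 levels of Cnot4 and Cnot6 were the most alike of all pairs of members (Pearson's r = 0.94), followed by Cnot1 and Cnot3 (0.89) and Cnot10 and Cnot11 (0.83). The least alike were Cnot6l and Cnot11 (−0.64). Among 10260 genes with a mean of at least 10 CPM, the 5 most like Cnot1 were Lars (0.97) and Iars (0.97), which encode aminoacyl-tRNA synthetases, Fkbp5 (0.97), Acly (0.97) and Nup98 (0.96). The libraries are pairs of replicates from 10 groups and not independent points.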

How the data were processed

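For the P-body and cytoplasm libraries of ES cells, MEFs and day 3 cells, the authors made oligo(dT)-primed Smart-seq libraries, aligned the reads with HISAT2 to mm10 and deposited counts per refGene gene from featureCounts. They behave as estimated counts, with fractions in 17.6% to 25.7% of values, and how shared reads were divided is not stated. Polysome, total RNA and Ago2 KO values, as deposited by the authors, are expected counts from salmon, of which 5.05% to 6.19% and 11.6% to 13.1% were not whole. Whether counting used strand is not given in the sources used here. The 10 deposited tables of the authors' own comparisons (fold changes and adjusted p-values) were not used, while every per-sample column was mapped to a library (0 unused).

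Counts were rounded to whole numbers. For the 18 comparisons, edgeR's quasi-likelihood test was run (edgeR 4.0.16 in R 4.3.3, two-sided) after TMM scaling, on its own libraries and on genes with at least 10 reads over them, with Benjamini-Hochberg adjustment over all genes tested. Differences in enrichment or occupancy were interaction contrasts. Standard errors were derived from the test statistic. Levels use TMM factors of the whole table, so that ratios of levels differ slightly from fitted fold changes. Depth ran from 13308776 to 29362187 reads in the polysome table and from 15624342 to 17486206 reads in the Ago2 KO table, and low counts set the precision of low genes. Other settings were DESeq2 1.42.0 as the test, its size factors, edgeR filtering by filterByExpr or not at all, a replicate block, a joint fit of every group in a table, and fits without each library in turn, where a lone library was taken to vary like the others. The scripts were tested on simulated data.

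Groups and replicate numbers came from the sample titles. The members, the lists of partners and the tests were chosen with earlier results of these data known. All members were named in every comparison, with the partner lists by counts and at most the 4 called partners of largest absolute log2 fold change per comparison. Transcripts are the GENCODE M21 basic protein-coding transcript with the longest coding part, and coordinates are mm10, counted from 1. Coding parts were aligned with Biopython (version 1.88), and plots were drawn with matplotlib (version 3.10.9).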

Additional observations from a re-analysis of the deposited data

Results flagged for a closer look

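The effect of the P-body fraction differed between cell types for several members, by the interaction test of edgeR (adjusted p under 0.05). Between naive and primed ES cells, the naive minus primed difference of log2 fold changes was 2.23 for Cnot6, 2.08 for Cnot6l and 0.98 for Cnot4. It was −0.51 for Cnot3, −0.51 for Cnot8 and −0.55 for Cnot11, and these calls were lost in 5, 2 and 6 of the 6 other settings.

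Between naive ES cells and MEFs, the naive minus MEF difference was 3.95 for Cnot6, 3.25 for Cnot6l, 2.12 for Cnot4, 1.56 for Cnot2 and 1.11 for Cnot1. It was −0.40 for Cnot8 and −0.49 for Cnot11, and these calls were lost in 4 and 5 of the 6 other settings. Between day 3 control cells and MEFs, the day 3 minus MEF difference was 1.11 for Cnot1 and 0.55 for Cnot2, and both calls hung on single libraries. The comparisons share libraries and are not independent of each other. Groups of 2 or 3 libraries are too small for a test of outlying libraries.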

How the results depend on the processing

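Of 1060 member values refitted under other settings, 995 kept their side of the threshold, 40 lost a call, 25 gained one and 0 called values reversed. The 995 include 21 uncalled values that changed sign. Members called in day 3 control cells went from 0 to 2 with DESeq2, 1 with no filter and 2 with all groups in 1 fit, and in Nudt21 knockdown cells from 2 to 1 with all groups in 1 fit. In Ago2 KO cells they went from 3 to 5 with DESeq2 and 6 with the replicate block. For the naive minus primed difference they went from 6 to 3 with no filter or all groups in 1 fit, for the day 3 minus MEF difference from 2 to 1 with the replicate block, for the knockdown cytoplasm from 3 to 1 with all groups in 1 fit, and for total RNA from 0 to 1 with DESeq2, no filter or all groups in 1 fit.

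Without single libraries, the count ran from 4 to 9 (naive), 1 to 7 (MEF), 0 to 5 (day 3 control), 0 to 3 (day 3 knockdown), 2 to 6 (Ago2 KO), 2 to 7 (naive minus primed), 4 to 7 (naive minus MEF), 0 to 2 (day 3 minus MEF), 0 to 9 (cytoplasm, naive minus primed) and 0 to 4 (total RNA). Cnot1 reversed, from −0.53 to 0.28 in naive cells and from −0.27 to 0.55 in the naive minus primed difference, when naive cytoplasm replicate 2 or 1 was left out. The cause was not tested.

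The naive minus primed difference was called higher for 2389 genes and lower for 1960, but for 2857 and 1525 with filterByExpr, 2836 and 1467 with no filter, and 2422 and 1271 with all groups in 1 fit. For naive minus MEF, 3895 and 3598 became 4711 and 2852 with no filter and 4667 and 2952 with all groups in 1 fit. These settings raised the median of all genes by 0.11 to 0.25. Over all genes, other counts moved by more than 1.5 times. In day 3 control cells the 31 higher and 71 lower genes became 2105 in all with DESeq2, 202 with filterByExpr, 1940 with no filter, 802 with the replicate block and 3308 with all groups in 1 fit. In Ago2 KO cells 919 and 176 became 1731 with DESeq2, 716 with its size factors, 2643 with no filter and 4178 with the replicate block. In total RNA 191 and 318 became 832 with DESeq2, 863 with no filter, 82 with the replicate block and 1138 with all groups in 1 fit. With all groups in 1 fit, primed cells went from 4288 and 3921 to 5128, day 3 knockdown cells from 1446 and 2055 to 2100, and the knockdown cytoplasm from 3930 and 4004 to 4877. The Nudt21 difference (0 and 2) became 26 with DESeq2, 62 with no filter and 1 with the replicate block, and the occupancy difference (0 and 0) became 4, 16 and 6.

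The replicate numbers were not shown to pair the libraries. Deviations of same-numbered libraries correlated at −0.05 (naive), 0.07 (primed), −0.01 (MEF), 0.14 and 0.17 (day 3) and 0.60 (Ago2 KO), and at −0.01 to 0.19 in the polysome series, where not every library correlated best with its own number. The replicate block moved 2 counts of called members by at least 1.5 times, those given above. The low counts of Cnot6l in the naive cytoplasm limit its precision there.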

Other observations

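The recruiters of the complex were also compared in the cytoplasm. Relative to primed cells, 3 of 16 tested were higher in the naive cytoplasm and 9 were lower (median log2 difference −0.90), and relative to MEFs 4 were higher and 10 lower (median −2.17). Of all genes, 22.1% were called higher and 21.6% lower relative to primed cells, and 36% and 35.9% relative to MEFs. Nanos3, a germ cell RNA-binding protein, was higher in naive than in primed cytoplasm (6.05 ± 0.94, edgeR adjusted p = 0.004378), and Zfp36, which encodes TTP, was lower (−2.49 ± 0.27, adjusted p = 0.001453). The Roquin genes Rc3h1 and Rc3h2 were lower in the naive than in the MEF cytoplasm (−3.59 ± 0.16 and −3.63 ± 0.26).

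At day 3, Paip1, a poly(A)-binding protein partner, was higher in control than in MEF cytoplasm (4.37 ± 0.11, adjusted p = 1.561e-14). In the Nudt21 knockdown cytoplasm Rc3h1 was higher than in the control (1.72 ± 0.09, adjusted p = 5.658e-11), while Btg2 and Tob1, antiproliferative adaptors of the CAF1-type nucleases, were lower (−0.98 ± 0.07 and −0.98 ± 0.09). Ddx6 itself had an occupancy of −0.93 ± 0.04 in DDX6-depleted cells and −0.80 ± 0.07 in control cells, a difference that was not called (−0.14 ± 0.09, adjusted p = 0.8845). Its total RNA was lower in depleted cells than in the control (−0.23 ± 0.06, adjusted p = 0.0473), close to the threshold. Of 37 partner genes tested in total RNA, 4 were lower and 0 higher, against 2.07% and 1.24% of all genes. The others were Rc3h2 (−0.42 ± 0.09), Pan3 (−0.30 ± 0.07) and Pabpc1 (−0.23 ± 0.05). Partner genes were not followed under other settings, and the replicate block left 82 calls over all genes.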
